A study of Mus musculus with 42 samples.

Results

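The clustered protocadherins are 57 protein-coding genes on mouse chromosome 18, chosen here by their GENCODE M21 gene type and by symbols that begin with Pcdha, Pcdhb or Pcdhg, out of the 44674 genes in the deposited count table. They form 3 neighbouring clusters of 14 alpha, 22 beta and 21 gamma members. Levels in ribosome pulldowns and in the matched inputs were examined in 21 pools of main olfactory epithelium, each made from 4 epithelia of male C57BL/6NCrl mice aged 8 to 12 weeks. The mice had smelled no added odour (5 pools), or for 1 h the odour of normal chow diet (NCD, 6 pools), of a bacon-flavoured diet with the nutrients of chow (BFD, named Bacon in the labels, 5 pools) or of a lard-based high-fat diet (HFDlard, named HFD in the labels, 5 pools). The labels name no allele, transgene or agent other than the odour in any group, and a pool averages over its animals, so no value here belongs to a single mouse. From each pool, ribosomes carrying the phosphorylated ribosomal protein S6 were immunoprecipitated, which favours RNA of recently active cells, and both the pulldown and the starting lysate (input) were sequenced, giving 42 libraries.

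Clustered protocadherins are cadherin-like cell-surface proteins that bind identical copies of themselves on neighbouring membranes. Each neuron, olfactory sensory neurons included, switches on a small and largely random choice of their promoters, and the resulting surface code lets a neuron's branches avoid each other and lets axons of like neurons spread or converge. In the alpha and gamma clusters a variable exon, which encodes the extracellular and transmembrane part, is spliced to constant exons that all members of the cluster share, whereas beta genes consist of their variable exon alone. The C-type members at the ends of the alpha and gamma clusters (Pcdhac1, Pcdhac2, Pcdhgc3, Pcdhgc4 and Pcdhgc5) are chosen less randomly than the others and are often found in most neurons of a type.

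In GRCm38 coordinates the alpha cluster runs from 36930184 to 37187661, the beta cluster from 37264938 to 37524479 and the gamma cluster from 37661793 to 37841873, all on the forward strand of chromosome 18. Alpha members are annotated with 4 exon blocks, beta members with 1, and gamma members with 3 to 5. Shared sequence bears on the measurement. A median of 64.3% of the 31-base words of an alpha member also occurred in another gene, member or not, against 47.9% for gamma and 11.8% for beta members. Within the same cluster alone the medians were 62.3% for alpha, 45.4% for gamma and 11.8% for beta members. The level of an alpha or gamma member therefore rests on how the quantifier divided reads among genes. Values for Pcdhga10 (99.4% shared words) and Pcdha4 (92.2%) are the least certain. Among beta members Pcdhb12 shared 66.9% of its words, and 63.1% were found in genes outside the members. Pcdhb1 shared no such word with any other gene. Of the C-type members, Pcdhgc4 shared 37.4%, Pcdhgc5 38.3%, Pcdhac2 48.4% and Pcdhgc3 66.2% of their words. Pcdhac2 lies at 37143503 to 37187657, Pcdhb1 at 37264938 to 37267525, Pcdhgc3 at 37806364 to 37841873 and Pcdhgc4 at 37815079 to 37841873, where the last stretch of both gamma genes is their common 3′ end. The symbol Pcdha11 stands on 2 rows with different identifiers, which were kept apart.

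Library totals ranged from 24839555 to 36781553 estimated counts (median 30772495), and all 57 members passed the filter on low counts both in the 42 libraries and in the 21 inputs. A member had a median of 110 counts in an input (19.0 to 2128 over members), and none was at 0 in any library. The share of counts on ribosomal RNA genes had a higher mean in the no odour group, at 28.1% ± 4.21 (SD, n = 5) of the inputs against 15.8% with NCD, 11.8% with BFD and 15.6% with HFDlard odour, and at 23.9% of the pulldowns against 13.4% to 14.6%. The ranges overlapped, with 21.7% to 32.2% of the inputs without and 9.75% to 21.9% with odour. This difference in mean library make-up between the unexposed and the exposed pools moves with every comparison to no odour described here. None of the listed cell type markers was at 0 in all libraries, and Omp, the olfactory marker protein of mature sensory neurons, had a mean of 6148 CPM (counts scaled to a common library total) in the inputs.

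Levels differed widely among the members. Pcdhb1, the beta gene nearest to the alpha cluster, had the highest level of all, with 25.7 ± 2.29 CPM per kb of exon (mean ± SD, 21 inputs) and a range of 20.3 to 29.7. Pcdhgc4 followed with 9.46 ± 2.00 (7.08 to 13.8), Pcdhgc3 with 7.86 ± 0.807 (6.05 to 8.93) and Pcdhac2 with 4.25 ± 0.423 (3.47 to 5.29). The lowest input of Pcdhb1 was above the highest of Pcdhgc4, and likewise Pcdhgc3 did not overlap with Pcdhac2, nor Pcdhac2 with the next member, Pcdhb16. The ranges of Pcdhgc4 and Pcdhgc3 overlapped. Below Pcdhac2 every member overlapped with its neighbour in the order, so their ranks are not firm. In bulk tissue, fewer cells that use a gene and less RNA of it per cell cannot be told apart.

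Apart from Pcdhb1 and the C-type members, the 51 remaining genes lay between 0.197 and 2.40 CPM per kb, with a median of 0.669. The highest of them were Pcdhb16 (2.40) and Pcdhb17 (2.11) in the beta cluster, Pcdha3 (2.19) and Pcdha2 (1.81) in the alpha cluster and Pcdhgb1 (2.25) and Pcdhga3 (2.02) in the gamma cluster, where both genes lie outside the naming rule and were picked with their values known. The medians of the clusters were close, with 0.822 for alpha, 0.628 for beta and 0.668 for gamma members, and differences between them were not tested. The C-type members ranged from 0.0791 (Pcdhgc5) to 9.46 (Pcdhgc4). Pcdhac1 had 0.821 ± 0.251, near the median of its cluster, and Pcdhgc5, the last gene of the gamma cluster, had 0.0791 ± 0.0562, the lowest mean of all 57. The plot of levels along the chromosome shows these outlying genes at the ends of the clusters.

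**Figure D1:**
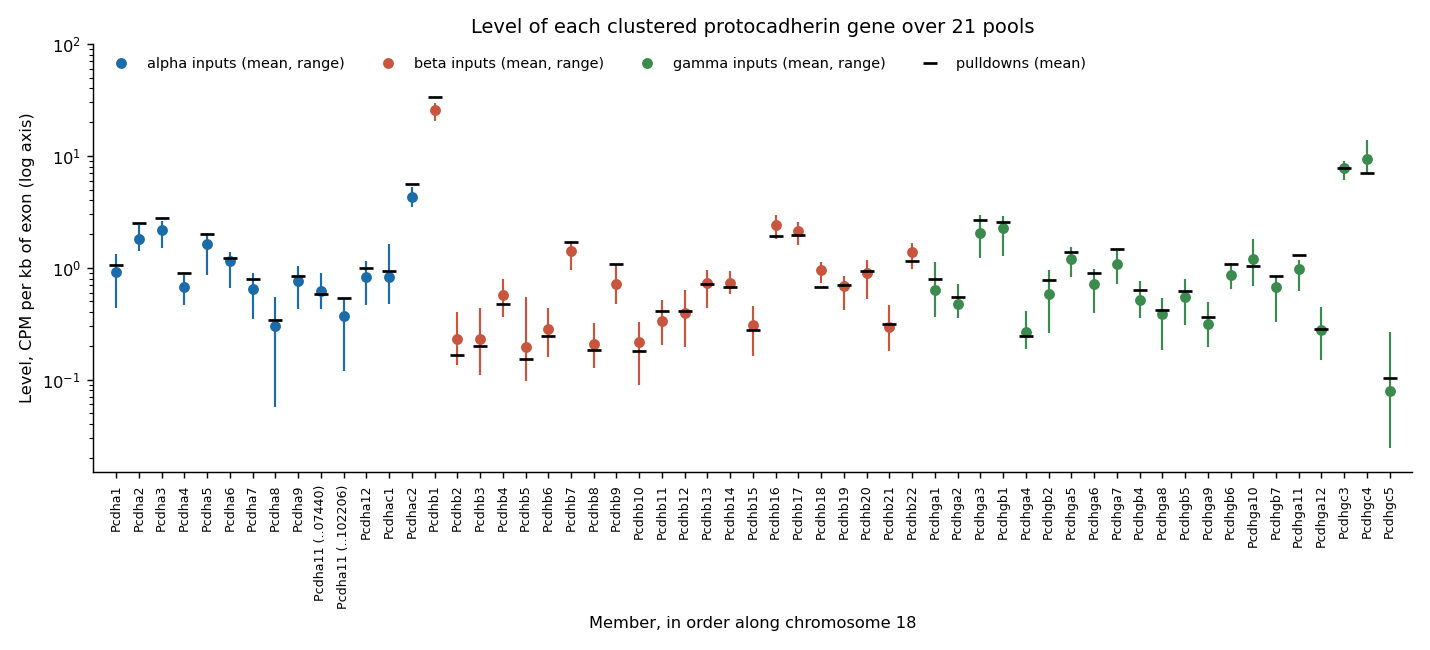
Level of each of the 57 members in order along the chromosome, in CPM per kb of exon on a log axis; points are means of 21 inputs with lines from the lowest to the highest input, and black bars are means of 21 pulldowns. Pcdhb1 (25.7), Pcdhgc4 (9.46), Pcdhgc3 (7.86) and Pcdhac2 (4.25) stand above all other members, and Pcdhgc5 (0.0791) lies lowest.

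A few members made up much of each cluster's signal. Pcdhb1 held 62.7% ± 1.98 (SD, 21 inputs) of the summed CPM per kb of the beta cluster, and 69.6% ± 2.09 in the pulldowns. Pcdhac2, which tiles serotonergic axons in the brain, held 25.1% ± 1.95 of the alpha cluster in the inputs and 26.8% ± 3.03 in the pulldowns, ahead of Pcdha3 with 13.0% ± 1.77 of the inputs. In the gamma cluster Pcdhgc4, an isoform on which neuronal survival depends, held 29.3% ± 6.43 of the inputs and Pcdhgc3 24.3% ± 2.22. In the pulldowns the order of the means was turned, with 23.6% ± 1.86 for Pcdhgc3 and 21.4% ± 3.70 for Pcdhgc4. These intervals overlapped and pool all odour groups, so the order is not firm. Ranks 1 to 4 among all members stayed the same when the mean transcript length replaced the total exon length.

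Without added odour, 9 of the 57 members differed between pulldown and input at an adjusted p under 0.001 in edgeR's quasi-likelihood test, 7 higher and 2 lower in the pulldown. Over all 21168 genes tested 35.8% were called, 19.8% higher and 16.0% lower, so 9 of 57 members lies below the background share. The count rests on the fit: it was 3 when the share of ribosomal RNA entered as a covariate (Pcdhac2, Pcdha2 and Pcdhb18, beside 27.7% of all genes) and 3 with the no odour pools fitted by themselves (Pcdhac2, Pcdha2 and Pcdhgc4, beside 24.9%). With 1 pool of any group left out it ranged from 4 to 11, and was 4 without no odour replicate 4 (32.3% of all genes) and 5 without replicate 1 (29.3%) or 3 (29.0%). The biological coefficient of variation had a median of 16.8% over members (6.90% to 36.3%) and 12.1% over all genes, which were not matched for level. The higher members were Pcdhac2, Pcdha2 and Pcdha12 of the alpha cluster, Pcdhb1 of the beta cluster, and Pcdhga1, Pcdhgb1 and Pcdhga3 of the gamma cluster, and the lower ones were Pcdhb18 and Pcdhgc4. Pcdhgb1 and Pcdhga3 lie outside the rule for named genes, and are given here because the number of calls is small.

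Pcdhac2 had log2 pulldown-to-input ratios of 0.72, 0.46, 0.62, 0.85 and 0.67 in the 5 no odour pools. It was thus higher in the pulldown of every pool, with a fitted log2 ratio of 0.67 ± 0.09 (SE, adjusted p = 7.08e-07, edgeR's quasi-likelihood test). Its pulldown levels of 33.7 to 39.7 CPM lay above all of its inputs. Pcdha2 had ratios of 0.35, 0.52, 0.64, 1.08 and 0.63, and was higher in the pulldown by a fitted 0.65 ± 0.11 (adjusted p = 8.9e-06). Its inputs (7.56 to 9.94 CPM) and pulldowns (9.67 to 16.9 CPM) overlapped only at 1 pool of each kind.

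Pcdhb1 had smaller but even ratios of 0.25, 0.18, 0.37, 0.53 and 0.37, for a fitted value of 0.34 ± 0.06 (adjusted p = 1.96e-05). Its call is the one that rests on the most counts, although its inputs (52.5 to 69.3 CPM) and pulldowns (64.9 to 94.6 CPM) overlapped between pools. Pcdhga1 had ratios of 0.47, 0.38, 0.40, 1.21 and 0.95, and a fitted value of 0.70 ± 0.15 (adjusted p = 0.000303). Pcdha12 had 0.37, 1.14, 0.48, 1.37 and 0.38, and a fitted value of 0.74 ± 0.18 with an adjusted p of 0.000996, at the edge of the threshold. Both genes were higher in every pool, yet the spread between pools was wide and the size of the difference is loosely set: without no odour replicate 4 the values were 0.56 for Pcdhga1 and 0.58 for Pcdha12, and neither was called. Pcdha12 lost its call without any 1 of the 5 pools (0.58 to 0.85), and Pcdhga1 also without replicate 6 (0.63).

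On the lower side, Pcdhgc4 had ratios of -0.55, -0.41, -0.41, -0.90 and -0.50. Its inputs held 70.2, 70.1, 77.3, 73.2 and 43.7 CPM and its pulldowns 47.8, 52.9, 58.1, 39.2 and 30.9 CPM, so that every pool was lower after the pulldown, by a fitted -0.55 ± 0.11 (adjusted p = 0.000219). Pcdhb18 had ratios of -0.98, -0.59, -0.83, -0.14 and -0.28 and a fitted value of -0.56 ± 0.13 (adjusted p = 0.000895). It too was lower in every pool, though only slightly in replicate 4. The call of Pcdhgc4 was lost without replicate 1 (-0.55) or 4 (-0.48), and that of Pcdhb18 without replicate 1 (-0.46), 2 (-0.56) or 3 (-0.50).

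The other C-type members were not called. Pcdhgc3 had 0.26 ± 0.08 (adjusted p = 0.00733), Pcdhac1 -0.04 ± 0.20 (adjusted p = 0.881) and Pcdhgc5 0.28 ± 0.39 (adjusted p = 0.556). The value of Pcdhac1 has no firm direction, at 0.15 without no odour replicate 4 and -0.31 without replicate 2. Among the well-expressed variable genes, Pcdha3 had 0.37 ± 0.13, Pcdhb16 -0.07 ± 0.11 and Pcdhb17 0.05 ± 0.11, none of them called. For Pcdhgc5 the standard error is larger than the value, so a difference of that size was not detectable at this depth.

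Compared by cluster, the median log2 ratio without odour was 0.35 over alpha, 0.06 over beta and 0.36 over gamma members, and 0.01 over all genes tested. A ratio above 0 was found for 11 of 14 alpha, 12 of 22 beta and 18 of 21 gamma members. The only background given for these counts is the median of 0.01 over all genes. At the laxer adjusted p of 0.05, which 22 of 57 members and 59.5% of all genes passed, 6 alpha, 3 beta and 11 gamma members were higher, and 0 alpha, 1 beta and 1 gamma member lower. Within the gamma cluster the A-type genes had a median of 0.40 (12 members) and the B-type genes of 0.53 (6 members). These medians describe the clusters and were not compared by a test. Members of the alpha and gamma clusters also share words with each other, so their ratios are not independent.

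**Figure D2:**
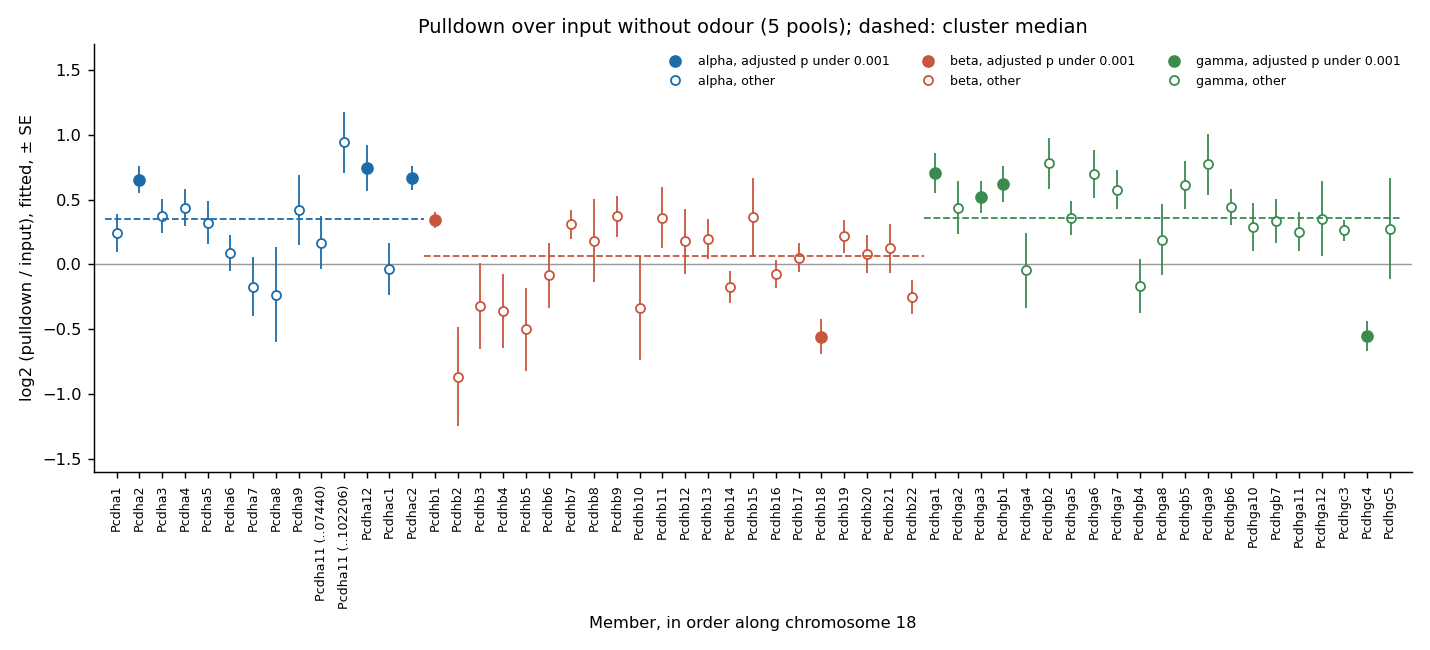
Fitted log2 pulldown-to-input ratio of each member in the 5 no odour pools, with its standard error; filled points passed an adjusted p under 0.001 and dashed lines are cluster medians. The medians lie at 0.35 (alpha), 0.06 (beta) and 0.36 (gamma), and Pcdhb18 and Pcdhgc4 are the filled points below 0.

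The marker lists give the setting of these ratios. In the same comparison 5 of 8 markers of mature sensory neurons, 4 of 6 of immature neurons and 3 of 5 of neurogenic progenitors were higher in the pulldown (median log2 ratios of 0.46, 0.50 and 0.65), and none of these was lower. Markers of supporting cells (4 of 5 lower, median -1.83), horizontal basal cells (3 of 4, -2.15), olfactory ensheathing cells (4 of 5, -1.02) and fibroblasts (6 of 6, -0.76) went the other way, while those of erythroid (4 of 4 higher, 2.07) and myeloid cells (4 of 5 higher, 1.32) were higher. Endothelial markers were mixed (1 of 4 higher and 3 lower, median -0.73). Not every marker of the neuronal and progenitor lists was above 0. Below it lay Omp (-0.07) and Gnal (-0.25) of the mature, Dcx (-0.07) of the immature, and Neurod1 (-0.16) and Mki67 (-0.24) of the progenitor markers. None of these was called. The alpha and gamma medians lay above 0, as did those of the neuronal, erythroid and myeloid lists, and below each of these. How much the mix of cells in the pulldown adds to a member's ratio was not tested.

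With odour the number of called members also stayed below the background share. In the NCD group 4 members were higher and 1 lower, where 24.4% of all genes were higher and 21.6% lower (46.0% together). In the BFD group 3 were higher and 1 lower, beside 22.5% and 18.8% of all genes (41.3%). In the HFDlard group 3 were higher and 0 lower in edgeR's quasi-likelihood test, beside 22.7% and 20.0% (42.7%). At an unadjusted p under 0.05 the HFDlard group had 5 members on the lower side (33.6% of all genes), and DESeq2 called 1 of them, Pcdhb18, beside 23.1% of all genes. An adjusted p under 0.05 was reached by 18 members with NCD (67.1% of all genes), 17 with BFD (63.1%) and 17 with HFDlard odour (64.6%). Pcdhb1 was called in all 4 groups. It was the only such member, whereas 13.5% of all genes were called higher in all 4 groups and 10.6% lower.

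The ratio of Pcdhb1 was above 0 in 21 of 21 pools. With NCD odour it lay between 0.19 and 0.40 with a median of 0.27, with BFD odour it was 0.20, 0.59, 0.51, 0.60 and 0.48, and with HFDlard odour 0.43, 0.37, 0.25, 0.39 and 0.41. The fitted values were 0.29 ± 0.05, 0.48 ± 0.06 and 0.37 ± 0.06, with adjusted p of 2.55e-05, 9.18e-08 and 4.37e-06 in edgeR's quasi-likelihood test. All groups overlapped.

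Pcdhb18 was below 0 in all 21 pools, and its fitted value with odour was -0.40 ± 0.12 (NCD, adjusted p = 0.00414), -0.56 ± 0.13 (BFD, 0.000546) and -0.49 ± 0.13 (HFDlard, 0.00188), of which the BFD value was called. Pcdhgc4 was above 0 in 1 of 21 pools, and had -0.42, -0.38 and -0.37 in the 3 odour groups, none of them called (adjusted p of 0.00111, 0.00541 and 0.00703). Pcdhb16 had a ratio above 0 in 1 of 21 pools, and with NCD odour it was called lower at -0.45 ± 0.10 (adjusted p = 0.000207). Its 6 NCD pools lay between -0.63 and -0.25. The alpha genes Pcdhac2 and Pcdha2 were each above 0 in 20 of 21 pools. Pcdhac2 was called with NCD (0.37 ± 0.08) and Pcdha2 with NCD (0.58 ± 0.09) and HFDlard odour (0.45 ± 0.10). Calls outside the set of genes named by rule, given because their number is small, were Pcdhga11 (0.55) with NCD, Pcdha4 (0.58) with BFD and Pcdhb9 with BFD (0.93) and HFDlard odour (0.73).

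Not all of these calls outlast the loss of a pool. With NCD odour, Pcdhac2 was no longer called without NCD replicate 1, 4, 5 or 6, Pcdhga11 without 1, 2, 5 or 6 and Pcdhb16 without 2 or 4. With BFD odour, Pcdhb18 needed replicates 1, 2, 3 and 5 and Pcdha4 replicates 1, 2, 4 and 5. With HFDlard odour, Pcdha2 was lost without replicate 1, 3, 5 or 6 and Pcdhb9 without 1, 2 or 5. Pcdhb1 was called with every such loss in its group.

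By cluster, the median ratios with odour were 0.19 (NCD), 0.28 (BFD) and 0.35 (HFDlard) for alpha, -0.13, -0.14 and -0.04 for beta and 0.17, 0.16 and 0.10 for gamma members, with -0.01, -0.02 and -0.01 for all genes. Over the 4 groups together, 24 members had a ratio above 0 in every group, among them 7 alpha, 5 beta and 12 gamma genes. Of the 10 members below 0 in every group 8 were beta genes, 2 were gamma genes and 0 were alpha genes. No share of all genes is given beside these counts. They describe the members and do not show a difference from the background. The clusters were not tested against each other.

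**Figure D3:**
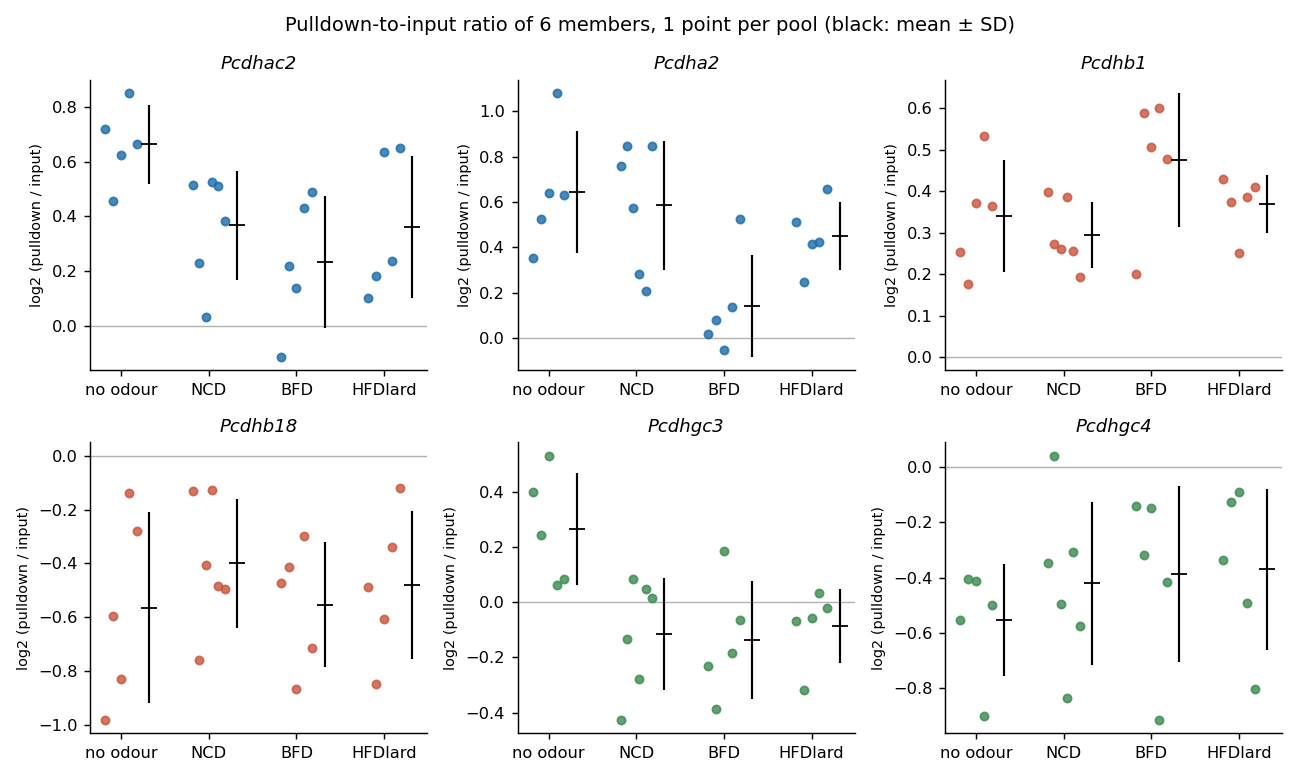
Log2 pulldown-to-input ratio of 6 members in each of the 21 pools, with the mean and SD of each group in black; the line at 0 marks equal levels. Pcdhb1 lies above 0 and Pcdhb18 below 0 in all pools, and the ratios of Pcdhgc3 in the HFDlard group lie below those of every no odour pool.

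The study's own contrast asks whether an odour changes the pulldown-to-input ratio relative to no odour. No member was called in any of the 3 comparisons, which share the 5 no odour pools, while 0.524% of all genes were called with NCD, 3.78% with BFD and 1.22% with HFDlard odour. DESeq2's Wald test likewise called 0 members. At an unadjusted p under 0.05 in edgeR's quasi-likelihood test 1 member was higher and 10 were lower with NCD odour, 2 and 10 with BFD odour and 1 and 7 with HFDlard odour. Over all genes these shares were 13.9% higher and 14.0% lower with NCD, 17.2% and 16.4% with BFD and 14.4% and 15.2% with HFDlard odour, and 10 and 1 of 57 members can be read against these. At an adjusted p under 0.05 there were 3 members with NCD (13.1% of all genes), 6 with BFD (22.5%) and 1 with HFDlard odour (15.7%).

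Pcdhgc3 had the smallest p of the members in all 3 comparisons. Its ratios were 0.40, 0.24, 0.53, 0.06 and 0.08 without odour, between -0.43 and 0.09 with a median of -0.06 with NCD odour, -0.23, -0.39, 0.18, -0.18 and -0.07 with BFD odour, and -0.07, -0.32, -0.06, 0.03 and -0.02 with HFDlard odour. The HFDlard pools were all below the no odour pools, a separation that 5.46% of all genes showed in this direction, whereas the NCD and BFD pools overlapped with them. The fitted change was -0.38 ± 0.11 for NCD (adjusted p = 0.0243), -0.40 ± 0.12 for BFD (0.0130) and -0.35 ± 0.12 for HFDlard (0.0381), short of the threshold of 0.001. Its pulldown levels ranged from 39.3 to 49.5 CPM without odour and from 36.2 to 48.1 CPM with odour, and its input levels from 33.3 to 46.0 and from 38.4 to 49.1 CPM, so neither part of the ratio was separated by itself.

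Pcdhac2 and Pcdha2, which were higher in the no odour pulldown, had their largest difference with BFD odour. For Pcdhac2 the BFD pools had ratios of -0.11, 0.22, 0.14, 0.43 and 0.49, and the change from no odour was -0.43 ± 0.13 (adjusted p = 0.0156). For Pcdha2 they were 0.02, 0.08, -0.05, 0.14 and 0.53, a change of -0.51 ± 0.15 (adjusted p = 0.0135). In both genes the upper BFD pool overlapped with the no odour pools. The differences for Pcdha12 were -0.76 ± 0.25 with BFD (adjusted p = 0.0289), -0.68 ± 0.24 with NCD (0.0593) and -0.39 ± 0.25 with HFDlard odour (0.321), and none was called. Pcdhb1 had -0.05 ± 0.08, 0.13 ± 0.08 and 0.03 ± 0.08 in the order NCD, BFD and HFDlard, small values with narrow errors, and Pcdhgc4 0.13 ± 0.15, 0.17 ± 0.16 and 0.18 ± 0.16.

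By cluster, the median change of the ratio was -0.08 (NCD), -0.03 (BFD) and -0.11 (HFDlard) for alpha, -0.07, -0.07 and -0.03 for beta and -0.27, -0.28 and -0.27 for gamma members, while for all genes it was -0.01 with HFDlard odour and nearer to 0 with the others. Of the 21 gamma members 6 lay above 0 with NCD, 3 with BFD and 5 with HFDlard odour. The only background given for these counts is the median over all genes. The same unexposed pools enter each of the cluster medians. Other gene lists went both ways. The median change of the 20 regulators of protocadherin promoters was -0.34, -0.39 and -0.28. That of the 5 progenitor markers was -0.42, -0.60 and -0.47. Above 0 lay the medians of markers of mature sensory neurons (0.13, 0.26 and 0.14), ensheathing cells (0.48, 0.46 and 0.75) and erythroid cells (0.15, 0.17 and 0.17). The summed level of the progenitor markers in the pulldowns was 148 to 154 CPM without odour and 112 to 141 CPM with any odour. In the inputs it was 96.7 to 132 CPM without odour and 124 to 159 CPM with any odour, so both parts of the ratio differed. The mean ribosomal RNA share differed as given before. The part of these lists and of that share in the gamma medians was not tested.

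**Figure D4:**
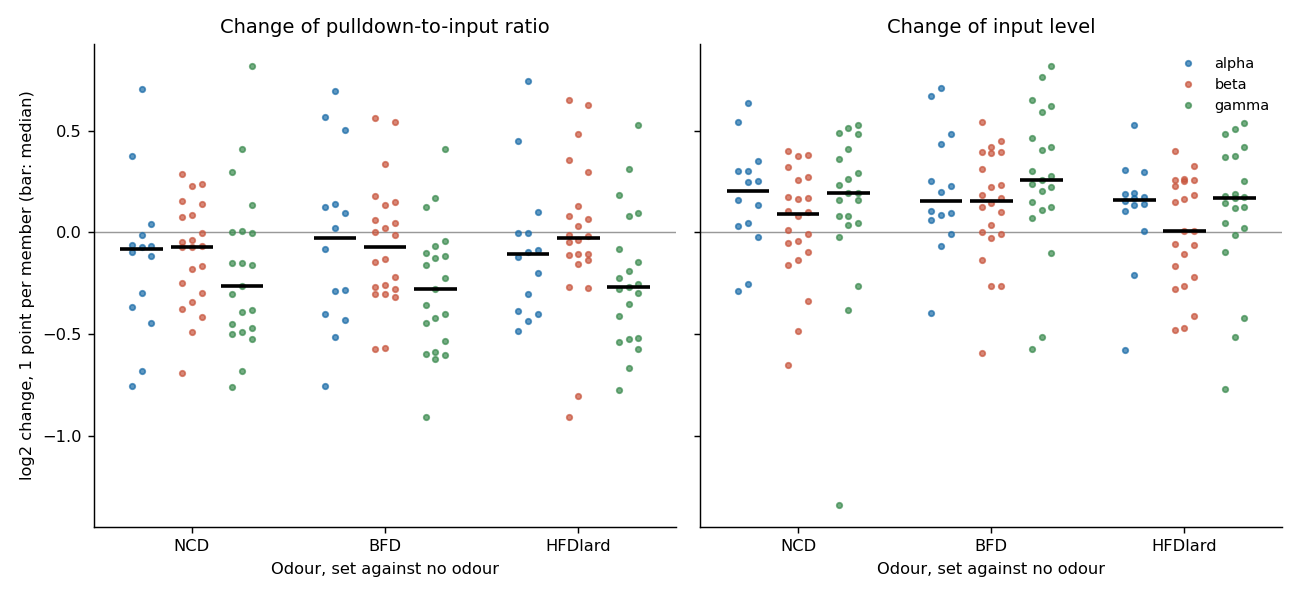
Change of the pulldown-to-input ratio (left) and of the input level (right) with each odour against no odour, in log2, with a point for each member and a bar for the cluster median. On the left the gamma medians lie at -0.27, -0.28 and -0.27, and on the right most medians lie slightly above 0.

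Input levels show the tissue before the pulldown. No member was called between odour and no odour inputs, where 0.998% of all 20451 genes were called with NCD, 13.7% with BFD and 0.963% with HFDlard odour. At an unadjusted p under 0.05 in edgeR's quasi-likelihood test, 16 members were higher and 3 lower with NCD, 19 and 2 with BFD and 11 and 4 with HFDlard odour, beside 17.4% and 18.2%, 23.4% and 23.8%, and 17.5% and 17.4% of all genes. At an adjusted p under 0.05 there were 10 members with NCD (23.5% of all genes), 18 with BFD (39.8%) and 4 with HFDlard odour (21.7%). DESeq2's Wald test called 1 member with NCD, 7 with BFD and 1 with HFDlard odour at 0.001, beside 6.17%, 21.1% and 5.86% of all genes in that test.

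Pcdha12 was nearest to a call. Its inputs held 3.29, 2.48, 3.32, 2.53 and 4.41 CPM without odour and 5.08, 5.02, 5.70, 5.01 and 5.56 CPM with BFD odour. The groups did not overlap, and the change was 0.71 ± 0.16 (adjusted p = 0.00101). With NCD odour it was 0.64 ± 0.15 (0.00578) and with HFDlard odour 0.30 ± 0.16 (0.183). The beta gene Pcdhb17 had 9.11, 7.73, 8.45, 7.90 and 7.45 CPM without odour and 9.64 to 11.8 CPM with NCD odour, a change of 0.38 ± 0.09 (adjusted p = 0.00539), again with no overlap. It was the only member with this pattern for NCD odour, which 5.84% of all genes showed. With BFD odour every input of 7 members lay above every no odour input (Pcdha12, Pcdhb16, Pcdhb17 and Pcdhga1, and, outside the naming rule, Pcdhgb1, Pcdhga9 and Pcdhga12), a pattern of 13.7% of all genes.

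Pcdhgc4, the second most abundant member, had negative values with every odour. Its no odour inputs held between 70.1 and 77.3 CPM in 4 pools and 43.7 CPM in replicate 6. With odour the range was 39.6 to 58.0 CPM (NCD, median 51.5), 43.8 to 49.3 CPM (BFD) and 40.9 to 58.4 CPM (HFDlard). Replicate 6 thus lay among the odour pools and the other 4 above all of them. The change was -0.38 ± 0.12 for NCD (adjusted p = 0.0238), -0.52 ± 0.12 for BFD (0.00224) and -0.51 ± 0.12 for HFDlard (0.00700), none of them called. Without that replicate it was called in all 3 comparisons, at -0.50, -0.64 and -0.63 (adjusted p of 0.000507, 2.21e-05 and 0.000113). That replicate was singled out with these values known, so these calls are a description and not a test. No odour replicate 6 also had the lowest ribosomal RNA share of its group, 21.7% of the input and 14.6% of the pulldown, and when the share of ribosomal RNA entered as a covariate the HFDlard change of Pcdhgc4 was 0.038 and the BFD change of Pcdha12 was -0.21. The ribosomal RNA share and the exposure go together in these pools and cannot be told apart.

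The same replicate bears on other genes. Without it 4 members were called with NCD odour, namely Pcdha12 (0.78), Pcdhb1 (0.31), Pcdhgb1 (0.69) and Pcdhgc4, and 5 with BFD odour, namely Pcdha12 (0.85), Pcdhga3 (0.58), Pcdhgb1 (0.81), Pcdhgc3 (0.33) and Pcdhgc4, beside 3.94% and 17.3% of all genes in that fit. With HFDlard odour the call was Pcdhgc4 alone, beside 3.35%. Replicate 6 was singled out with its values known. These counts are the upper ends of the ranges over pools left out, 0 to 4 (NCD), 0 to 5 (BFD) and 0 to 1 (HFDlard). The median input change was 0.20 (NCD), 0.15 (BFD) and 0.16 (HFDlard) for alpha, 0.09, 0.15 and 0.01 for beta and 0.19, 0.26 and 0.17 for gamma members, and -0.02, 0.01 and -0.01 for all genes. Summed over members, the inputs held 384 ± 13.6 CPM without odour, 417 ± 8.37 with NCD, 422 ± 18.7 with BFD and 396 ± 7.28 with HFDlard odour. Fibroblast markers had negative values in the inputs (3 of 6 called lower with NCD and 4 of 6 with BFD odour), with medians of -0.36, -0.50 and -0.22 and summed levels of 2170 to 3004 CPM without odour and 1650 to 2396 CPM with any odour. Their part in the members' values was not tested.

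**Figure D5:**
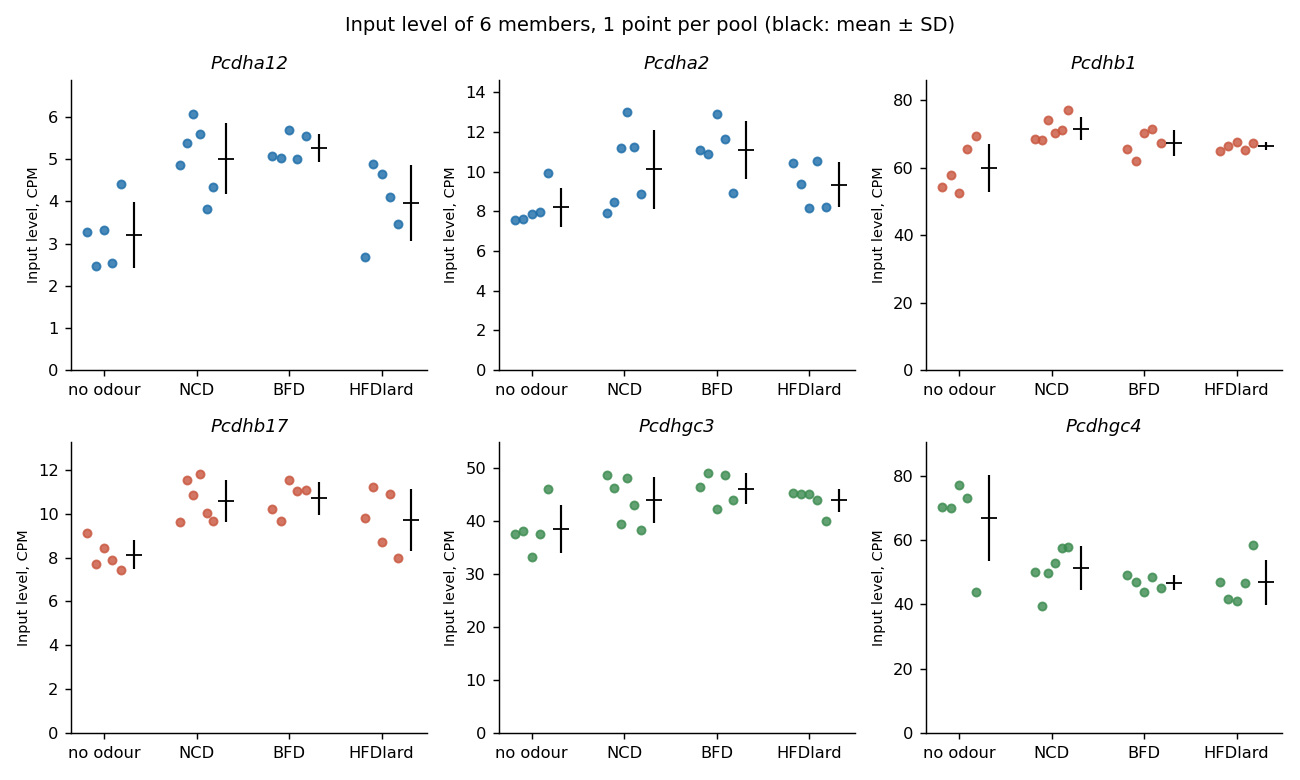
Input level of 6 members in each of the 21 pools, in CPM on axes that start at 0, with the mean and SD of each group in black. Pcdha12 and Pcdhb17 are higher in the BFD than in the no odour pools, and Pcdhgc4 is at 70.1 to 77.3 CPM in 4 no odour pools and at 43.7 CPM in the fifth.

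No member was called between the odours, which does not show that they act alike. Between BFD and HFDlard odour 0 members were called in the ratio (0.0378% of all genes) and 0 in the inputs (0.0831%). In the other pairs, 0 were called between HFDlard and NCD (0.0236% in the ratio and 0.0538% in the inputs) and 0 between BFD and NCD (0.00945% and 0.108%), and DESeq2's Wald test also called 0 in each. At an unadjusted p under 0.05 in edgeR's quasi-likelihood test the ratio of 2 members was higher and of 0 lower with HFDlard than with BFD odour, of 0 and 0 members with HFDlard than with NCD, and of 3 and 1 with BFD than with NCD odour. Among all genes the shares were 3.48% and 4.52%, 2.38% and 2.24%, and 3.69% and 3.55%. For the inputs the counts were 0 and 7, 0 and 3, and 3 and 1, beside 10.6% and 8.07%, 3.74% and 2.87%, and 9.81% and 12.3% of all genes.

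These differences were loosely set. Pcdha2 had the smallest p in 2 of the ratio comparisons, with 0.31 ± 0.15 for HFDlard over BFD (adjusted p = 0.601) and -0.44 ± 0.14 for BFD over NCD (adjusted p = 0.513, edgeR's quasi-likelihood test). Pcdhb3 had it for HFDlard over NCD, at 0.71 ± 0.44. In the inputs it was Pcdhgb4 for HFDlard over BFD (-0.57 ± 0.18, adjusted p = 0.113), Pcdha12 for HFDlard over NCD (-0.33 ± 0.15, adjusted p = 0.704) and Pcdhb10 for BFD over NCD (0.89 ± 0.28, adjusted p = 0.0765). Pcdhb3 and Pcdhb10 are among the least abundant members, with 0.230 and 0.215 CPM per kb. Their standard errors were the widest of these.

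Genes related to the clustered protocadherins, or that work with them, were read from 3 lists. Their counts stand beside 19.8% of all genes higher and 16.0% lower in the no odour pulldown. Of 12 protocadherins outside the clusters, 6 were higher and 1 was lower in the no odour pulldown (median log2 ratio 0.27), led by Pcdh10 (1.72 ± 0.11), Pcdh19 (0.90 ± 0.09) and Pcdh1 (0.87 ± 0.07), with Pcdh18 lower (-0.85 ± 0.16). Of 20 regulators of protocadherin promoters, such as chromatin insulator, cohesin and DNA methylation factors, 10 were higher and 2 lower (median 0.29). Lhx2 (1.40 ± 0.09), a homeodomain factor of olfactory neurons, and its partner Ldb1 (0.88 ± 0.07) led them, followed by the DNA methyltransferase gene Dnmt1 (0.81 ± 0.08). Of 16 partners and processing enzymes 8 were higher and 2 lower (median 0.31), among them the kinase gene Fyn (0.78 ± 0.08) and Axin1 (0.64 ± 0.06), a scaffold of Wnt signalling. These lists had medians close to those of the alpha and gamma members, and all 3 were chosen with earlier results of these data known.

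In the odour contrast of the ratio, 0 of the 12 outside protocadherins were called with any odour in edgeR's quasi-likelihood test. The regulator Dnmt1 fell by 0.62 ± 0.11 on the log2 scale with NCD and by 0.57 ± 0.11 with BFD odour, and was the only called gene of its list. Among the partners Ptk2, the gene of focal adhesion kinase, fell by 0.50 ± 0.10 with BFD odour. In the inputs Pcdh10 rose by 0.61 ± 0.09 with NCD, by 1.32 ± 0.09 with BFD and by 0.70 ± 0.09 with HFDlard odour. The ribosomal RNA share moves with these comparisons, and the cause of the rise was not tested. Pcdh10 is a gene whose expression in olfactory neurons is known to follow activity. It was also the only listed protocadherin that differed between odours, at -0.62 ± 0.09 for HFDlard over BFD (adjusted p = 0.000435) and 0.70 ± 0.09 for BFD over NCD (adjusted p = 2.47e-05). In the comparison of BFD with no odour inputs Pcdh1 (0.40 ± 0.07), Pcdh7 (0.38 ± 0.08) and Pcdh17 (0.39 ± 0.08) were called as well, beside 13.7% of all genes.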

How the data were processed

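The labels describe 42 libraries from 21 pools, each pool giving a phospho-S6 ribosome pulldown and an input. Per the methods, the authors amplified RNA with the Ovation V2 system, made Nextera XT libraries, sequenced paired ends and quantified genes with Salmon on GRCm38. The deposited values are Salmon's estimated counts per gene, of which 30.9% were not whole, and they were rounded here. The 556 unnamed genes (0.525% of counts) could not be members, but they stayed in the counts that were filtered and fitted. Because Salmon divides reads that fit several genes, values of alpha and gamma members are partly shared.

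Counts were fitted with edgeR 4.0.16 (quasi-likelihood, robust, TMM) in R 4.3.3 after filtering at a minimum count of 10, with a term for each pool and the interaction of pulldown with odour. Inputs were fitted by themselves with odour as the only term. Adjusted p values (Benjamini-Hochberg over all genes) under 0.001 were called, the threshold the authors used. Levels are CPM, divided by exon length where given per kb. Log2 ratios of single pools use a prior count of 2, and fitted log2 values use edgeR's default. Alternatives included DESeq2 1.42.0, with limma 3.58.1 loaded by edgeR. On simulated counts for the NCD comparisons, the ratio test recovered 47 of 100 genes changed 2-fold and 72 of 100 changed 4-fold (20946 genes).

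Named by rule were the 2 most abundant members of each cluster, the 3 highest and the 3 lowest called ratios without odour, the member with the smallest p in each odour contrast with all called there up to 5, and the C-type members. Members and lists were chosen with earlier results of these data known. Libraries of 1 group all differed by more than sampling noise, with a chi-square per degree of freedom of at least 3.19 in 90 pairs. A pulldown and its input come from the same pool, which pairs them by design; the median correlation of their deviations from the group means was 0.0142. Intervals given are standard errors or SDs between pools.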

Additional observations from a re-analysis of the deposited data

Results flagged for a closer look

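Of 128 groups of pools examined over the 16 members named by rule, 8 held a pool far from the others by Dixon's criterion, and chance alone flags about 1 in 20 groups. No odour replicate 6 stood apart in the inputs of Pcdhgc4 (43.7 CPM, the others 70.1 to 77.3) and of Pcdha2 (9.94 CPM, the others 7.56 to 7.98). HFDlard replicate 6 had 40.1 CPM of Pcdhgc3 in its input (the others 44.0 to 45.3), and HFDlard replicate 1 had 1.17 CPM of Pcdhgc5 (the others 0.300 to 0.504). NCD replicate 2 had 1.26 CPM of Pcdhb3 (the others 0.651 to 0.869), and BFD replicate 4 had 0.664 CPM of Pcdhb10 (the others 0.856 to 0.886). In the log2 pulldown-to-input ratio, BFD replicate 4 had -0.014 for Pcdhb16 (the others -0.46 to -0.39) and BFD replicate 5 had 0.45 for Pcdha12 (the others -0.17 to -0.06).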

How the results depend on the processing

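Of 549 recomputed counts and medians over 19 results, 511 stayed within their limits and 38 did not. The 9 members called between pulldown and input without odour became 22 at an adjusted p under 0.05, 3 with the share of ribosomal RNA as a covariate, 3 with only the groups compared, and 4 to 11 with 1 pool left out. With NCD odour 5 became 18 at 0.05, 9 with only the groups compared and 3 to 6 with a pool left out. With BFD odour 4 became 17, 2 and 2 to 4 under the same choices, and with HFDlard odour 3 became 17 at 0.05 and 1 to 4 with a pool left out. These alternatives for the odour groups were chosen after seeing the data. No share of all genes is given for the fits with only the NCD or BFD pools or with an odour pool left out. Their counts describe the fits and are not a result about the members.

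For the odour change of the ratio, 0 members became 3 (NCD), 6 (BFD) and 1 (HFDlard) at 0.05, and stayed at 0 with any pool left out. For the inputs, 0 became 10, 18 and 4 at 0.05 and 1, 7 and 1 with DESeq2's Wald test, and with a pool left out 0 to 4 (NCD), 0 to 5 (BFD) and 0 to 1 (HFDlard). The BFD count was 1 with no filter beyond 1 count and 1 with a minimum count of 50, with no share of all genes given beside either. Between odours it was 0 in all alternatives run, at 0.05 as well. The medians without odour ranged over pools left out from 0.26 to 0.44 (alpha), -0.01 to 0.07 (beta) and 0.34 to 0.50 (gamma, the upper value without no odour replicate 6).

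Turned in sign were the input change of Pcdha12 with BFD (-0.21) and of Pcdhgc4 with HFDlard odour (0.038), both with the share of ribosomal RNA as a covariate. The no odour ratio of Pcdhac1 turned too, to 0.15 without no odour replicate 4, and was -0.31 without replicate 2. The cause was not tested. With the mean transcript length, Pcdhgc4 had 15.3 and Pcdhgc3 11.1 CPM per kb.

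No pairing of pools of different odours by replicate number was seen. The median correlation of their deviations was 0.0200 for inputs with the same number and -0.00209 for others, and 3 of 27 pairs were over 0.1. For a pulldown and its own input, which are paired, this measure was 0.0142, so it cannot exclude such a pairing. A fit with the replicate block in place of the pool term called 7 members without odour, and the fit without any block also 7. Pcdhgc4, Pcdhb18 and Pcdhga1 were among the 9 and not among these. With the replicate block the counts were 4 (NCD), 3 (BFD) and 3 (HFDlard) in the odour groups, and 0 in the ratio and input comparisons between odour groups. No share of all genes is given for the fits with the replicate block or without any block, so their counts are not read against a background. Depth limits the rarest members most: counts per input fell to 19.0 on average for the lowest of them.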
